A study of Mus musculus with 9 samples.

Results

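The 33 genes described here mark microglia, the resident macrophages of the brain, or carry immune signals inside them. They were chosen by symbol from the 24532 genes listed for every mouse, and each of the 33 symbols was found in all 9 files. Grouped by known role, 14 were homeostatic genes, which are high in resting microglia, 8 were lysosomal and phagocytic genes, and 11 were signaling genes. RNA came from the medial prefrontal cortex of C57BL/6 male mice bred from heterozygous parents and 11 weeks old by the sample labels, with 1 library per mouse and 3 mice in each group. CT mice were wild type and unstressed, and WT_ST mice were wild type and restrained for 6 h a day over 3 weeks. KO_ST mice were labelled Fkbp5-/- and restrained in the same way. Fkbp5 encodes FKBP51, a co-chaperone that lowers the sensitivity of the glucocorticoid receptor. The deletion was constitutive, so it was not limited to microglia. No unstressed Fkbp5-/- group was included, so KO_ST against WT_ST compared genotypes under restraint only, and KO_ST against CT mixed genotype with restraint.

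Microglia depend on signals from their surroundings. Neurons supply CX3CL1 to the receptor CX3CR1 and interleukin-34 to the receptor CSF1R, TGF-beta maintains the resting program, and the transcription factors PU.1, IRF8 and SALL1 hold the identity of the cell. Resting microglia survey the tissue through purinergic receptors such as P2RY12, and they clear debris through receptors such as TREM2 and MERTK and through lysosomal proteases. Immune signals pass through adaptors that carry an activating motif, among them TYROBP and the Fc receptor gamma chain, and are held back by phosphatases such as SHP-1 and SHIP1.

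Libraries held 43778471 to 61150128 reads on genes. Levels are given in FPKM, fragments scaled to the length of the transcript and to the mapped reads of the library. Differences were taken after quantile normalization on the log2(FPKM+1) scale, which understates the change of genes near or below an FPKM of 1. A gene was called when the unadjusted p of limma was under 0.05 and the fold change was above 1.2, over the 14370 genes that averaged at least 30 reads. Each of the 33 genes passed that filter. Fkbp5 itself was listed at an FPKM of 7.61, 6.46 and 7.28 in CT, 9.83, 9.47 and 10.3 in WT_ST and 3.59, 4.69 and 4.45 in KO_ST, and its log2 difference between KO_ST and WT_ST was -1.04 (adjusted p = 0.00908, limma with Benjamini-Hochberg adjustment). The gene was thus lower but not at 0 in KO_ST, with at least 625 reads per mouse, and the values per gene do not show whether these reads lie outside the deleted part.

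In both stressed groups most microglial genes lay below CT. The mean FPKM was ordered CT, then WT_ST, then KO_ST in 31 of 33 genes, and the exceptions were Aif1 and Mertk. In WT_ST against CT, 14 of 33 genes were called lower, where 1.32% of all tested genes were. In KO_ST against CT, 27 were called lower, against 2.03% of all tested genes. In KO_ST against WT_ST, 3 were called lower, against 1.05%. None was called higher in any comparison. The median log2 difference of the 33 genes was -0.26, -0.60 and -0.28 in these comparisons, and that of all tested genes lay between -0.0015 and 0.0034. The first and second comparison share the CT mice, so their values are set side by side and are not independent of each other. In RNA from whole tissue, fewer microglia and less of these RNAs per microglial cell cannot be told apart.

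No microglial gene passed an adjusted p of 0.05 with limma in any comparison, while 0.0348%, 0.0626% and 0.153% of all tested genes did. The adjusted p of the called genes lay between 0.267 and 0.635 in WT_ST against CT, between 0.437 and 0.523 in KO_ST against CT and between 0.847 and 0.852 in KO_ST against WT_ST. Unadjusted p-values under 0.05 with limma were reached by 16, 27 and 4 genes, against 7.86%, 9.46% and 5.82% of all tested genes. With edgeR they were reached by 16, 23 and 0 genes, against 7.47%, 9.34% and 5.58%, and with DESeq2 by 19, 25 and 6, against 7.17%, 9.39% and 4.97%. With edgeR, 0 microglial genes passed the adjusted threshold in any comparison, against 0.0418%, 0.0557% and 0.16% of all tested genes. With DESeq2, 7 passed it in WT_ST against CT (Csf1r, Cx3cr1, Inpp5d, Selplg, Vsir, Fcrls and Olfml3), 4 in KO_ST against CT (P2ry12, Vsir, Fcrls and Olfml3) and 0 in KO_ST against WT_ST, where 0.501%, 0.787% and 0.529% of all tested genes passed. On simulated data DESeq2 made more false calls than limma and edgeR did.

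The 3 KO_ST mice differed more among themselves than the mice of the other groups did. The standard deviation was largest in KO_ST for 25 genes, in CT for 6 and in WT_ST for 2. Relative to the CT mean, the median gene stood at 95.4, 92.9 and 111% in the CT mice, 82.5, 77.8 and 68.9% in the WT_ST mice and 41.5, 58.5 and 83.1% in the KO_ST mice (replicates 1 to 3 in each case). By FPKM, KO_ST replicate 1 was the lowest of all mice for 28 genes and CT replicate 3 the highest for 27, and after quantile normalization for 27 and 22. KO_ST replicates 1 and 2 lay below every CT mouse for 31 genes each, and KO_ST replicate 3 did so for 23 (FPKM). KO_ST replicate 3 also lay above every WT_ST mouse for 12 genes. The groups KO_ST and WT_ST overlapped for each of the 33 genes, although 5.99% of all tested genes were lower in KO_ST without overlap. On the normalized scale, on which all tested genes were compared, 15 genes did not overlap in WT_ST against CT, against 6.49% of all tested genes, and 21 did not in KO_ST against CT, against 7.94%. By FPKM these numbers were 16, with Tmem119 in addition, and 22, with Fcgr3 in addition.

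The counts of called genes depended on single mice. In KO_ST against CT, the 27 called genes became 17, 18 and 11 without CT replicates 1, 2 and 3, and 16, 15 and 31 without KO_ST replicates 1, 2 and 3, where 1.7% to 2.9% of all tested genes were called lower. The 3 called genes in KO_ST against WT_ST became 0, 1 and 22 without KO_ST replicates 1, 2 and 3, and 0, 0 and 4 without WT_ST replicates 1, 2 and 3. Of all tested genes 1.92% were called lower without KO_ST replicate 3 and 0.8% to 1.34% in the other 5 fits. The count in WT_ST against CT lay between 11 and 20 when 1 mouse was left out, where 1.1% to 1.95% of all tested genes were called lower, and was 5 in 1 fit over all 9 mice, where 1.22% were. Called in each of the 6 fits that left out a mouse were 11 genes in WT_ST against CT (Csf1r, Cx3cr1, Cyba, Fcer1g, Fcrls, Inpp5d, Lgals9, Olfml3, Selplg, Tmem119 and Vsir), 11 in KO_ST against CT (Cd37, Cx3cr1, Fcer1g, Fcrls, Gpr34, Lgals9, Olfml3, P2ry12, Selplg, Spi1 and Vsir) and 0 in KO_ST against WT_ST. The share of all tested genes called in each of the 6 fits was not computed, so these counts have no background beside them.

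**Figure D1:**
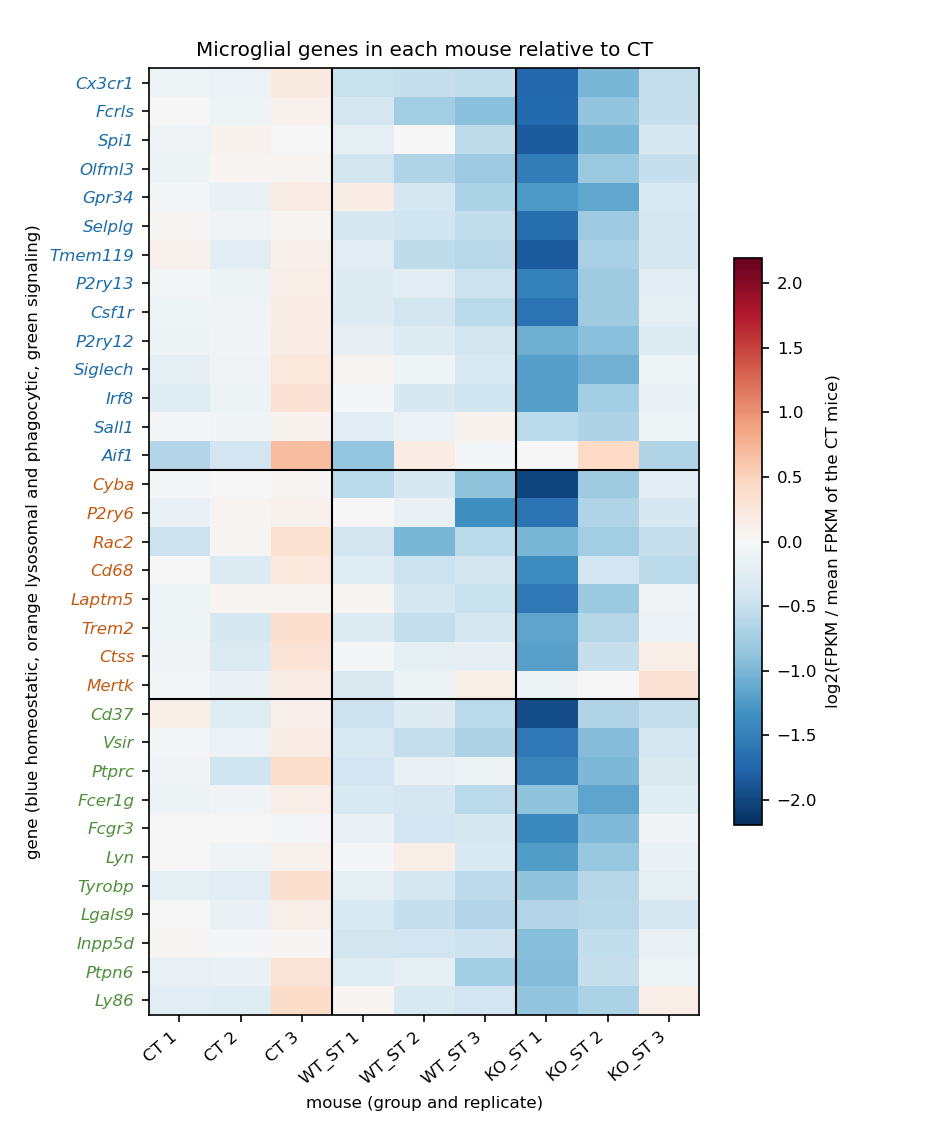
The log2 ratio of each gene's FPKM to the mean of the CT mice is drawn for the 33 microglial genes (rows, by class) in the 9 mice (columns), with blue below and red above CT. The column of KO_ST replicate 1 is the darkest blue, with the lowest value of 28 genes, KO_ST replicate 3 is the palest of its group, and the rows of Aif1 and Mertk do not follow the others.

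Most homeostatic genes had lower means in both stressed groups, with 7 of 14 called in WT_ST against CT, 13 in KO_ST against CT and 2 in KO_ST against WT_ST. Their median log2 differences were -0.26, -0.69 and -0.39. Cx3cr1 (chr9:120048683-120068296, GRCm38.p6), the fractalkine receptor, had FPKM values of 15.9, 15.6 and 19.3 in CT, 12.1, 11.9 and 11.6 in WT_ST and 5.09, 8.48 and 11.7 in KO_ST. The WT_ST mice lay close together and below every CT mouse, and the highest KO_ST mouse reached the level of WT_ST. Its log2 difference from CT was -0.48 in WT_ST (SE 0.0834, adjusted p = 0.412, limma) and -0.97 in KO_ST (SE 0.248, adjusted p = 0.470, limma). Between KO_ST and WT_ST it was -0.49 (SE 0.237, adjusted p = 0.872, limma).

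Csf1r encodes the receptor on which microglial survival depends and had the highest FPKM of the homeostatic genes. It was measured at 28.8, 29.1 and 34.7 in CT, 25.5, 23.3 and 20.6 in WT_ST and 10.1, 18.1 and 27.0 in KO_ST, and both stressed groups lay below every CT mouse. Its log2 difference from CT was -0.40 (SE 0.0935) in WT_ST and -0.80 (SE 0.298) in KO_ST. The KO_ST mice were spread more widely than the WT_ST mice. The call in KO_ST against CT was lost without any 1 CT mouse or without KO_ST replicate 2, while the call in WT_ST against CT held in each fit that left out a mouse.

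The purinergic receptor genes behaved alike in the order of the groups. P2ry12 (chr3:59216271-59262985, GRCm38.p6), the receptor by which microglia sense ADP, stood at 17.7, 18.2 and 21.3 in CT, 16.9, 15.6 and 14.5 in WT_ST and 9.04, 10.1 and 15.7 in KO_ST. The groups CT and WT_ST did not overlap, and KO_ST replicates 1 and 2 lay below every other mouse. Its log2 difference was -0.26 (SE 0.0831) in WT_ST and -0.68 (SE 0.183) in KO_ST against CT. Between KO_ST and WT_ST it was -0.42 (SE 0.177, unadjusted p = 0.0486, adjusted p = 0.852, limma), which passed the call by a small margin. P2ry13 (chr3:59207892-59210882), the neighbouring gene and another ADP receptor, was measured at 6.09, 5.79 and 6.98 in CT, 5.17, 5.37 and 4.55 in WT_ST and 2.25, 3.65 and 5.26 in KO_ST. Both stressed groups lay below every CT mouse, but only KO_ST was called, with a log2 difference of -0.64 (SE 0.213). The value for WT_ST was -0.25 (SE 0.0865), below the required fold. Without CT replicate 3 the calls of P2ry12 in WT_ST and of P2ry13 in KO_ST against CT were lost, and without WT_ST replicate 3 that of P2ry12 in WT_ST was lost too.

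Tmem119, Fcrls, Olfml3 and Selplg, which set microglia apart from other macrophages to differing degrees, were called in both comparisons with CT. Tmem119 stood at 10.8, 8.62 and 10.9 in CT, 8.47, 6.85 and 6.63 in WT_ST and 2.84, 6.14 and 7.93 in KO_ST, with log2 differences from CT of -0.40 (SE 0.121) and -0.79 (SE 0.285). The call of Tmem119 in KO_ST was lost without CT replicate 1 or 3. Fcrls, an Fc-receptor-like scavenger receptor, had the largest difference of the 33 genes in WT_ST, where it was -0.63 (SE 0.123, adjusted p = 0.542, limma). Its FPKM was 14.8, 13.9 and 15.9 in CT, 11.3, 8.79 and 7.86 in WT_ST and 4.53, 8.10 and 10.4 in KO_ST, and the log2 difference of KO_ST from CT was -0.90 (SE 0.237). Neither stressed group overlapped CT for Fcrls. Olfml3, a secreted olfactomedin-like protein, was measured at 10.5, 11.7 and 11.9 in CT, 8.58, 7.22 and 6.53 in WT_ST and 3.93, 6.48 and 8.004 in KO_ST, with log2 differences of -0.54 (SE 0.102) and -0.81 (SE 0.201). Selplg, the ligand of P-selectin, had the lowest adjusted p of the 33 genes in WT_ST against CT (0.267, limma), with a log2 difference of -0.40 (SE 0.0638). It stood at 11.8, 11.1 and 11.999 in CT, 8.87, 8.62 and 8.01 in WT_ST and 3.70, 6.65 and 9.02 in KO_ST, where its log2 difference from CT was -0.80 (SE 0.244).

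Siglech and Gpr34, both surface receptors, were called in KO_ST against CT only. Between KO_ST and WT_ST the log2 difference of Siglech was -0.52 (SE 0.226, adjusted p = 0.852, limma), the largest of the 33 genes. That of Gpr34 was -0.47 (SE 0.240, adjusted p = 0.892, limma), and neither was called. Siglech was measured at 5.57, 6.02 and 7.52 in CT, 6.65, 5.93 and 5.06 in WT_ST and 2.73, 3.07 and 5.96 in KO_ST. KO_ST replicates 1 and 2 lay apart from all other mice, and KO_ST replicate 3 lay within the range of WT_ST. Its log2 difference was -0.07 (SE 0.124) in WT_ST and -0.60 (SE 0.228) in KO_ST against CT. Gpr34, a lysophosphatidylserine receptor, was measured at 6.16, 5.66 and 7.07 in CT, 7.04, 4.83 and 3.88 in WT_ST and 2.61, 2.86 and 5.01 in KO_ST, with log2 differences of -0.23 (SE 0.181) and -0.70 (SE 0.187). WT_ST replicate 1 was at the level of the CT mice for this gene, and each KO_ST mouse was below every CT mouse. The call of Gpr34 held in each fit that left out a mouse, and that of Siglech was lost without CT replicate 2 or 3 or KO_ST replicate 1 or 2.

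The transcription factor genes showed the same order with smaller differences between WT_ST and CT, none of which was called. Spi1, which encodes PU.1, was measured at 1.96, 2.18 and 2.09 in CT, 1.80, 2.06 and 1.41 in WT_ST and 0.584, 1.03 and 1.63 in KO_ST. Its log2 difference was -0.14 (SE 0.0969) in WT_ST and -0.56 (SE 0.162) in KO_ST against CT, and -0.43 (SE 0.175, adjusted p = 0.847, limma) in KO_ST against WT_ST, where it was called. Only 38 reads were counted on Spi1 in the lowest mouse. Irf8 stood at 1.602, 1.79 and 2.39 in CT, 1.87, 1.51 and 1.42 in WT_ST and 0.830, 1.14 and 1.74 in KO_ST, and its log2 difference from CT in KO_ST was -0.37 (SE 0.154). Sall1, which in the adult brain marks microglia among macrophages, stood at 3.99, 3.89 and 4.30 in CT, 3.46, 3.71 and 4.30 in WT_ST and 2.68, 2.54 and 3.82 in KO_ST, with a log2 difference from CT of -0.32 (SE 0.119) in KO_ST. The KO_ST mice lay below every CT mouse for Spi1 and Sall1 and overlapped them for Irf8. The call of Spi1 in KO_ST against CT held in each fit that left out a mouse, that of Irf8 was lost without CT replicate 2 or 3 or KO_ST replicate 1 or 2, and that of Sall1 held only without KO_ST replicate 3.

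Aif1, which encodes the widely used microglial marker IBA1, did not follow the other homeostatic genes. It was measured at 4.29, 5.01 and 10.8 in CT, 3.72, 7.48 and 6.53 in WT_ST and 6.65, 9.07 and 4.20 in KO_ST. CT replicate 3 lay far above the other CT mice, and the highest KO_ST mouse for Aif1 was replicate 2, in which most other microglial genes were low. Its log2 differences were -0.09 (SE 0.329) in WT_ST and 0.06 (SE 0.343) in KO_ST against CT, and 0.15 (SE 0.285) in KO_ST against WT_ST. Between 165 and 472 reads were counted on it per mouse, and each of these directions was reversed when single mice were left out. Without CT replicate 3, for example, its log2 difference between WT_ST and CT was 0.26.

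PU.1 binds the core GGAA preceded by purines, and the promoters of many myeloid genes are known to hold such elements. Windows of 300 bases (250 before and 50 after the annotated start) from RefSeq on GRCm38.p6 were given for 24 of the 33 genes and searched on both strands. The letters GAGGAAGT occurred in the windows of 3 of 24 microglial genes (12.5%) and of 3.69% of 27025 genes. The shorter string GGAAGT, which the longer one contains, occurred in 13 of 24 (54.2%) and in 26.5% of all genes. A match is a description of the letters and not a measured binding site. The 5 stretches of 80 bases printed here come from called genes and show where such letters lie before the start of a RefSeq window. In Inpp5d, P2ry12 and Vsir that start is the first base of the gene, while in Fcrls and Cd37 it is another annotated start, 241 and 501 bases inside the full span of the gene, so these 2 stretches lie within it. The matching letters are in capitals, in the direction of the gene, and ACTTCC marks a match on the opposite strand. Inpp5d lies on the plus strand at chr1:87620232-87620311, Cd37 on the minus strand at chr7:45238840-45238919, P2ry12 on the minus strand at chr3:59262994-59263073, Fcrls on the minus strand at chr3:87263557-87263636 and Vsir on the plus strand at chr10:60346713-60346792.
Inpp5d: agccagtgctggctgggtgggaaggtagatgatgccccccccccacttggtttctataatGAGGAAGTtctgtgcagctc
Cd37: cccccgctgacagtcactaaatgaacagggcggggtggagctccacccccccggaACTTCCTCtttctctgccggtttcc
P2ry12: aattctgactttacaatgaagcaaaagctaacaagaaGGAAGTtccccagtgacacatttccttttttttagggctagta
Fcrls: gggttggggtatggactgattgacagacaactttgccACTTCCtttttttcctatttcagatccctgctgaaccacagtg
Vsir: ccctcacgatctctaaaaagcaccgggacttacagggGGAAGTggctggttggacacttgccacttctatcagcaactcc

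Mean levels of 8 lysosomal and phagocytic genes were lower in WT_ST and of 7 in KO_ST than in CT, with 2 of 8 called in WT_ST against CT, 5 in KO_ST against CT and 0 in KO_ST against WT_ST. Their median log2 differences were -0.26, -0.48 and -0.22. Cyba, a membrane subunit of the NADPH oxidase, was measured at 4.21, 4.25 and 4.41 in CT, 2.86, 3.35 and 2.33 in WT_ST and 1.06, 2.49 and 3.62 in KO_ST. The CT mice lay close together and above every stressed mouse. Its log2 difference from CT was -0.44 (SE 0.102) in WT_ST and -0.69 (SE 0.259) in KO_ST, with 36 reads in the lowest mouse. Cd68, a lysosomal membrane glycoprotein, stood at 6.95, 5.58 and 8.13 in CT, 5.74, 4.94 and 5.22 in WT_ST and 2.64, 5.13 and 4.58 in KO_ST, with log2 differences of -0.29 (SE 0.120) and -0.61 (SE 0.205). The CT and WT_ST mice overlapped for Cd68, and the call in WT_ST held only without CT replicate 2 or WT_ST replicate 1. In KO_ST the call of Cd68 was lost without CT replicate 1 or 3, and that of Cyba without any 1 CT mouse or KO_ST replicate 2.

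Laptm5, P2ry6 and Rac2 were called in KO_ST against CT. Laptm5, a lysosomal transmembrane protein, stood at 13.9, 15.1 and 15.3 in CT, 15.4, 11.4 and 10.5 in WT_ST and 4.98, 8.37 and 13.9 in KO_ST, with a log2 difference of -0.71 (SE 0.292) in KO_ST against CT. KO_ST replicate 3 lay within the range of CT, and the call held only without that mouse. P2ry6, the UDP receptor that triggers phagocytosis, was measured at 0.882, 1.03 and 1.05 in CT, 0.978, 0.880 and 0.386 in WT_ST and 0.320, 0.627 and 0.771 in KO_ST, with a log2 difference of -0.32 (SE 0.107). Rac2, a small GTPase of blood cells and a partner of the oxidase, stood at 0.820, 1.16 and 1.43 in CT, 0.863, 0.570 and 0.754 in WT_ST and 0.565, 0.672 and 0.800 in KO_ST, with a log2 difference of -0.31 (SE 0.110). Rac2 and P2ry6 are near the lower end of the levels, with 77 and 28 reads in their lowest mice. Without CT replicate 2 or 3 or KO_ST replicate 1 both calls were lost.

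Trem2, Ctss and Mertk were called in no comparison. Trem2, a lipid-sensing receptor that signals through TYROBP, was measured at 8.90, 7.42 and 12.2 in CT, 7.77, 6.604 and 7.29 in WT_ST and 4.25, 6.18 and 8.66 in KO_ST, with log2 differences from CT of -0.31 (SE 0.157) and -0.50 (SE 0.241). Ctss, which encodes the lysosomal protease cathepsin S, had the highest FPKM of the 33 genes, at 34.9, 29.7 and 45.3 in CT, 36.1, 32.1 and 32.4 in WT_ST and 16.1, 25.7 and 40.4 in KO_ST. KO_ST replicate 3 lay above every WT_ST mouse and KO_ST replicate 1 below every other mouse, and the log2 difference of KO_ST from CT was -0.46 (SE 0.307). Mertk, a receptor for bridged phosphatidylserine that astrocytes also express, stood at 9.95, 9.20 and 11.3 in CT, 8.17, 9.44 and 11.2 in WT_ST and 9.42, 10.2 and 12.7 in KO_ST. Its log2 differences of -0.06 (SE 0.111) and 0.10 (SE 0.115) from CT were smaller than their standard errors, and the highest mouse was KO_ST replicate 3.

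The signaling genes were called in 5 of 11 cases in WT_ST against CT, 9 in KO_ST against CT and 1 in KO_ST against WT_ST, with median log2 differences of -0.27, -0.40 and -0.21. Among the adaptors and Fc receptor parts, Fcer1g, the gamma chain shared by Fc receptors, was measured at 8.14, 8.43 and 9.73 in CT, 6.96, 6.82 and 5.84 in WT_ST and 4.77, 3.92 and 7.29 in KO_ST. Every stressed mouse lay below every CT mouse. The log2 difference from CT was -0.36 (SE 0.0907) in WT_ST and -0.63 (SE 0.180) in KO_ST. Fcgr3, a low-affinity IgG receptor, stood at 8.86, 8.80 and 8.63 in CT, 7.93, 6.56 and 6.86 in WT_ST and 3.29, 4.49 and 8.40 in KO_ST, and was called in KO_ST against CT (-0.65, SE 0.254) but missed the fold in WT_ST (-0.25, SE 0.0809). Tyrobp, the adaptor of TREM2, stood at 15.0, 14.7 and 21.8 in CT, 14.7, 13.2 and 11.5 in WT_ST and 9.27, 11.1 and 14.8 in KO_ST, with a call in KO_ST against CT (-0.49, SE 0.194). CT replicate 3 was well above the other CT mice for Tyrobp, and the KO_ST mice overlapped the CT mice. The calls of Fcer1g held in each fit that left out a mouse, that of Tyrobp was lost without CT replicate 3 or KO_ST replicate 1 or 2, and that of Fcgr3 held only without KO_ST replicate 3.

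The kinase and phosphatase genes were Lyn, Ptprc, Ptpn6 and Inpp5d. Lyn, a Src family kinase, was measured at 2.13, 2.04 and 2.299 in CT, 2.13, 2.39 and 1.72 in WT_ST and 0.925, 1.22 and 1.96 in KO_ST. The WT_ST and CT mice overlapped, with a log2 difference of -0.01 (SE 0.0929), and Lyn was called in KO_ST against CT (-0.40, SE 0.145) and against WT_ST (-0.39, SE 0.159, adjusted p = 0.847, limma). Inpp5d, which encodes the lipid phosphatase SHIP1, stood at 4.03, 3.86 and 4.06 in CT, 3.01, 2.97 and 2.92 in WT_ST and 2.08, 2.74 and 3.56 in KO_ST, and both stressed groups lay below CT without overlap. Its log2 difference from CT was -0.30 (SE 0.0615) in WT_ST and -0.37 (SE 0.132) in KO_ST. The group means of Lyn were close in CT and WT_ST, and those of Inpp5d were close in WT_ST and KO_ST. Ptprc, which encodes the phosphatase CD45, stood at 0.690, 0.526 and 0.931 in CT, 0.535, 0.640 and 0.663 in WT_ST and 0.263, 0.361 and 0.574 in KO_ST, and was called in KO_ST against CT (-0.27, SE 0.102). Without CT replicate 1 or 3 or KO_ST replicate 1 or 2, the calls of Inpp5d, Ptprc and Lyn in KO_ST against CT were lost. Ptpn6, which encodes SHP-1, was called in no comparison, at 1.86, 1.88 and 2.53 in CT, 1.73, 1.80 and 1.25 in WT_ST and 1.07, 1.47 and 1.96 in KO_ST.

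Among the remaining signaling genes, Vsir, an inhibitory receptor of the B7 family known as VISTA, stood at 5.95, 5.61 and 6.92 in CT, 4.91, 4.27 and 3.83 in WT_ST and 2.07, 3.17 and 4.75 in KO_ST, and neither stressed group overlapped CT. Its log2 difference from CT was -0.40 (SE 0.105) in WT_ST and -0.74 (SE 0.206) in KO_ST. Lgals9, which encodes galectin-9, had the lowest adjusted p of the 33 genes in KO_ST against CT (0.437, limma), with 4.67, 4.23 and 5.12 in CT, 3.70, 3.30 and 2.98 in WT_ST and 2.99, 3.05 and 3.60 in KO_ST. Both stressed groups were at a similar level, with log2 differences from CT of -0.37 (SE 0.0924) and -0.40 (SE 0.0867). Cd37, a tetraspanin of immune cells, stood at 2.96, 2.26 and 2.92 in CT, 1.98, 2.22 and 1.80 in WT_ST and 0.702, 1.71 and 1.89 in KO_ST, with log2 differences of -0.27 (SE 0.0934) and -0.60 (SE 0.191), and with 41 reads in the lowest mouse. The call of Cd37 in WT_ST was lost without CT replicate 1 or 3 or WT_ST replicate 3, while the calls of Vsir and Lgals9 held in each fit that left out a mouse. Ly86, the partner of the toll-like receptor homolog RP105, was called in no comparison, at 5.53, 5.45 and 8.64 in CT, 6.76, 5.16 and 4.90 in WT_ST and 3.58, 4.06 and 7.24 in KO_ST. Exons of Cd37, P2ry12 and Csf1r overlap those of Tead2, Med12l and Hmgxb3 on the opposite strand in GENCODE M21, and whether strand was used in counting is not given in the sources used here. Tead2 was not called but lay below every CT mouse in both stressed groups, at 1.37, 1.17 and 1.36 in CT, 1.06, 0.934 and 0.898 in WT_ST and 0.805, 0.969 and 1.16 in KO_ST (log2 differences -0.20, SE 0.0679, and -0.20, SE 0.0773), so the values of Cd37 and Tead2 may share reads and those of Cd37 are uncertain. Med12l and Hmgxb3 were not called and their groups overlapped in each comparison.

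In each of the 3 classes KO_ST replicate 1 had the lowest and CT replicate 3 the highest median. The median homeostatic gene stood at 83.2, 77.3 and 68.7% of the CT mean in the WT_ST mice and at 35.3, 57.1 and 79.1% in the KO_ST mice. For the lysosomal and phagocytic genes the values were 82.6, 77.5 and 73.3% and 41.1, 64.3 and 87.8%, and for the signaling genes 79.7, 77.8 and 66.9% and 51.5, 62.1 and 86.4%. The classes lay within a few percentage points of each other in each WT_ST mouse, and they were farthest apart in KO_ST replicate 1, where the homeostatic genes were lowest. Genes of a class are not replicates of each other, so no test of a difference between classes was made.

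**Figure D2:**
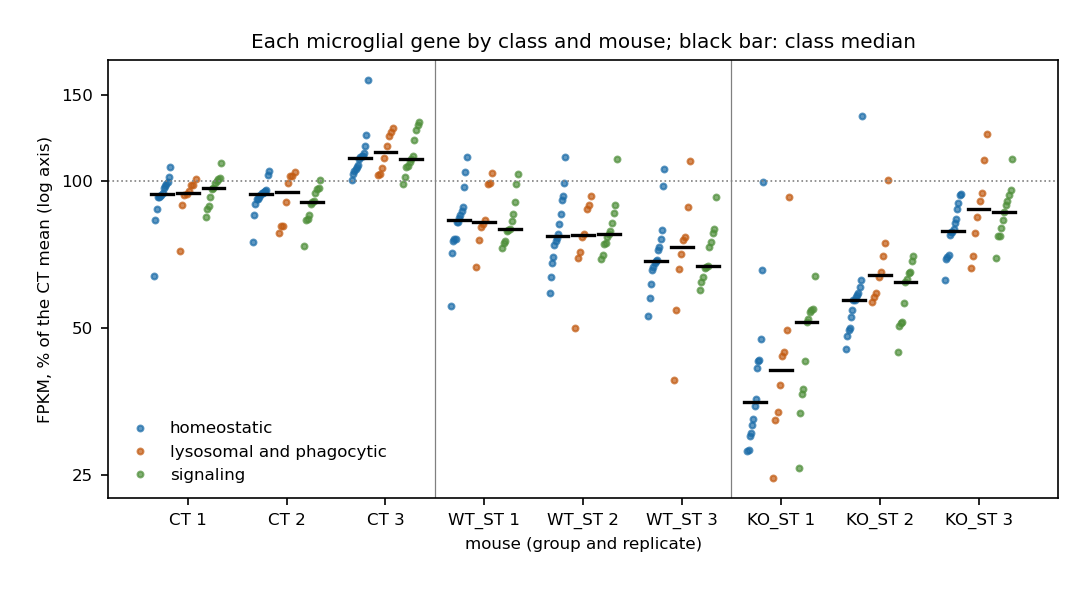
Each point is the FPKM of 1 gene in 1 mouse as a percentage of its CT mean, on a log axis, and the black bars are class medians for 14 homeostatic, 8 lysosomal and phagocytic and 11 signaling genes. Class medians in KO_ST run from 35.3% in replicate 1 to 87.8% in replicate 3, and those in WT_ST lie between 66.9% and 83.2%.

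In KO_ST against WT_ST the called genes were P2ry12, Spi1 and Lyn, with log2 differences of -0.42, -0.43 and -0.39, and these calls held in 1, 2 and 2 of the 6 fits that left out a mouse. Of the 33 genes, 31 had a lower mean in KO_ST. Without replicate 3 of KO_ST 22 genes were called, without replicate 2 only 1 was, and without replicate 1 none was, with a median log2 difference of -0.10. For the 15 genes whose WT_ST and CT mice did not overlap on the normalized scale, the log2 difference between KO_ST and WT_ST ranged from -0.49 in Cx3cr1 to -0.03 in Lgals9. It was also small in Inpp5d (-0.07) and Ptpn6 (-0.06), and of the 15 only P2ry12 was called.

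**Figure D3:**
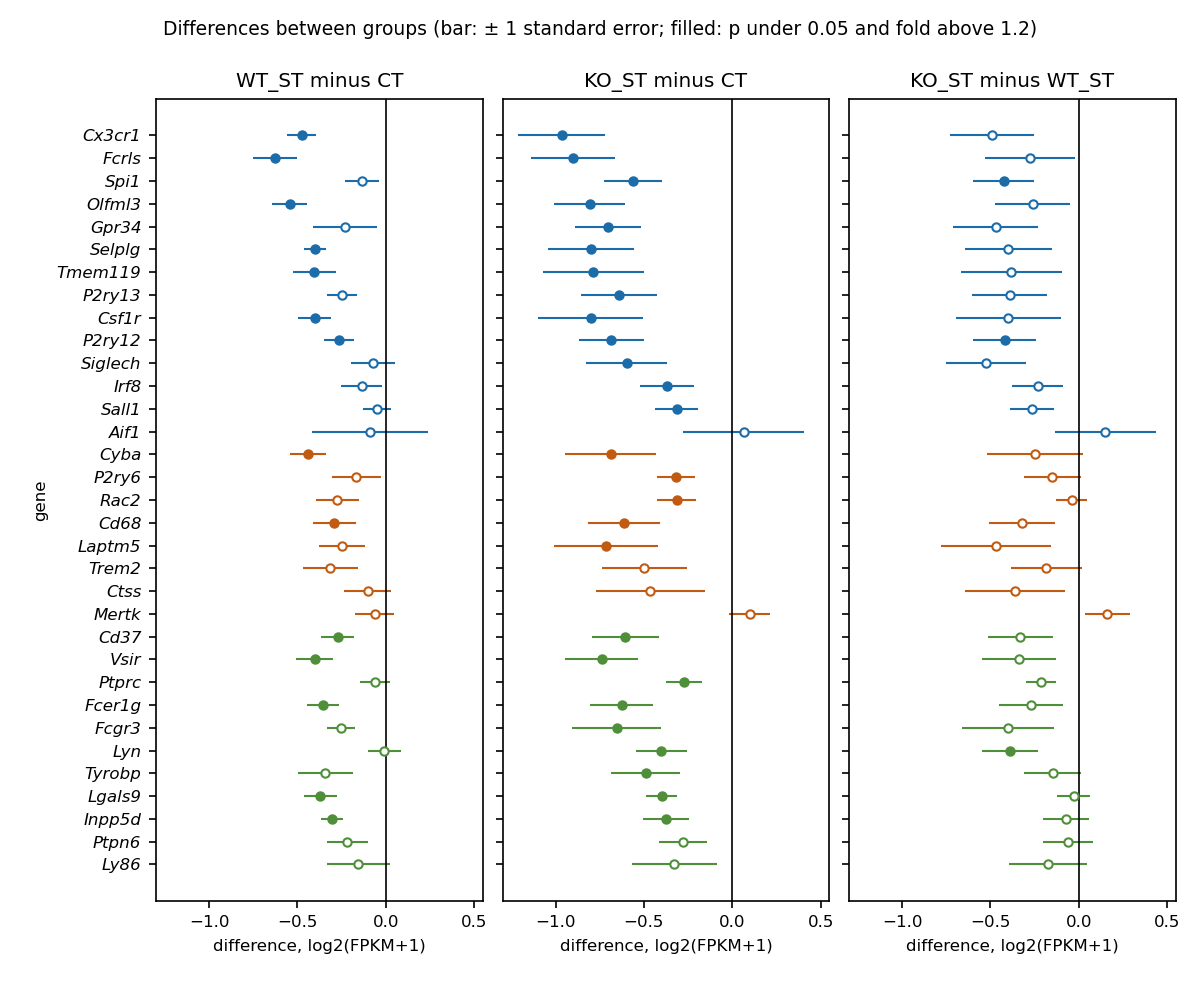
Differences between group means on the log2(FPKM+1) scale are drawn for the 33 genes in the 3 comparisons, with bars of ± 1 standard error and filled points for called genes (14, 27 and 3). Most points lie left of zero in each panel, and for most genes the bars are wider where KO_ST mice enter.

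The genes for the signals that these receptors receive were mostly not called. Of the 7 ligand genes examined, 1 was called lower in KO_ST against CT, where 2.03% of all tested genes were, and none in the other comparisons. Cx3cl1, the ligand of CX3CR1, stood at 309, 258 and 270 in CT, 284, 268 and 259 in WT_ST and 258, 260 and 273 in KO_ST. Il34, a neuronal ligand of CSF1R, stood at 42.2, 40.8 and 39.2 in CT, 43.2, 39.2 and 41.0 in WT_ST and 42.0, 43.1 and 41.2 in KO_ST. Csf1, the other CSF1R ligand, was measured at 4.17, 4.43 and 4.98 in CT, 4.92, 4.88 and 4.35 in WT_ST and 5.15, 4.30 and 5.15 in KO_ST. The groups overlapped for these 3 genes, whose receptor genes were called lower in both stressed groups. Tgfb1, which microglia also make, was the called gene, at 1.89, 1.77 and 2.51 in CT, 1.97, 1.58 and 1.34 in WT_ST and 0.889, 1.26 and 1.43 in KO_ST (log2 difference from CT in KO_ST -0.45, SE 0.116, adjusted p = 0.470, limma). Gas6 and Pros1, which bridge MERTK to dying cells, had group means of 32.0, 32.9 and 33.7 and of 3.31, 3.12 and 2.66 in CT, WT_ST and KO_ST. Cd200, a neuronal restraint on microglia, had group means of 47.6, 49.1 and 49.1.

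Further genes of microglia outside the 33 were mostly below CT too, with the median gene at 87.5, 81.3 and 79.2% of the CT mean in the WT_ST mice and 43.9, 62.2 and 92.8% in the KO_ST mice. Of 34 tested, 3 were called lower in WT_ST against CT (among them Itgb5 and Lpcat2), 14 in KO_ST against CT and 8 in KO_ST against WT_ST. Of all tested genes 1.32%, 2.03% and 1.05% were called lower. The medians of the log2 differences of the 34 genes were -0.09, -0.26 and -0.18. Lpcat2, an enzyme of phospholipid remodeling, stood at 3.43, 3.09 and 3.81 in CT, 2.33, 2.13 and 2.36 in WT_ST and 1.28, 1.70 and 2.25 in KO_ST, with a log2 difference from CT of -0.68 (SE 0.129) in KO_ST. Slc2a5, a fructose transporter of microglia, was the gene of this list with the largest difference in KO_ST against WT_ST, at -0.67 (SE 0.194), with 1.82, 1.76 and 1.33 in WT_ST and 0.373, 0.431 and 1.31 in KO_ST. Of 13 tested genes that rise in activated microglia, 2 were called lower in WT_ST against CT, Apoe (-0.55, SE 0.178) and Ccl6 (-0.32, SE 0.0919). Ccl6 was also called lower in KO_ST against CT (-0.68, SE 0.0845) and against WT_ST (-0.35, SE 0.0938), and none of the 13 was called higher in any comparison. Apoe is made mainly by astrocytes. Cst7, Itgax, Clec7a, Ccl3, Ccl4, Tnf and Il1b had too few reads to be tested.

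Markers of other cells were set beside the microglial genes. Of 10 neuronal markers none was called in any comparison, with median log2 differences of 0.12, 0.17 and 0.04. On the normalized scale, however, 2 lay above every CT mouse in WT_ST and 4 in KO_ST. The share of all tested genes that lay above CT in this way was not computed. An unadjusted p under 0.05 (limma) was reached by 3 and 5 neuronal markers, at folds of 1.2 or less. Of all tested genes, 7.86% and 9.46% reached it in either direction and at any fold. Of 10 oligodendrocyte markers none was called either, while all 10 had higher means in WT_ST than in CT and than in KO_ST, with median log2 differences of 0.24, 0.10 and -0.14. Of 10 astrocyte markers 2 were called lower in WT_ST against CT (Aqp4 at -0.59 and Slc1a3 at -0.30), where 1.32% of all tested genes were. In that comparison 7 astrocyte markers had a lower mean, 6 of them without overlap on the normalized scale. Of all tested genes 6.49% were lower without overlap there. The median log2 differences of the astrocyte list were -0.14, -0.11 and 0.05 in the 3 comparisons. Of 10 markers of endothelium and mural cells 2 were called lower in WT_ST against CT (Cldn5 at -0.32 and Vtn at -0.30), against the same 1.32%. Without overlap on the same scale 3 were lower, against 6.49%, and 1 was higher, for which no share was computed. The medians of this list were -0.07, -0.13 and -0.06. Cldn5 was also called in KO_ST against CT (-0.39). In KO_ST replicate 1, the mouse with the lowest microglial genes, the median endothelial and mural marker stood at 70.9% of the CT mean, and the part of these other cell types in the microglial differences was not tested. Of 5 tested border macrophage markers and 5 tested markers of monocytes and neutrophils, none was called. The median border macrophage marker stood at 134, 104 and 62.4% of the CT mean in the CT mice, 159, 73.2 and 37.1% in the WT_ST mice and 78.3, 127 and 219% in the KO_ST mice, and all 5 had higher means in KO_ST than in CT. Summed reads on monocyte and neutrophil markers were 53.1 RPM (reads scaled to an equal library total) in CT replicate 3 and between 2.58 and 9.41 RPM in the other mice. Summed reads on hemoglobin and Alas2 were also highest in CT replicate 3, at 481 RPM, and this mouse had the highest oligodendrocyte markers (145% of the CT mean). CT replicate 3 had the highest FPKM of all mice for 27 of the 33 genes, and without it the called genes numbered 12 in WT_ST against CT and 11 in KO_ST against CT. The part of blood cells or of oligodendrocytes in these differences was not tested. Lymphocyte markers were near absent, at no more than 1.86 RPM summed in any mouse, with none reaching the read minimum.

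**Figure D4:**
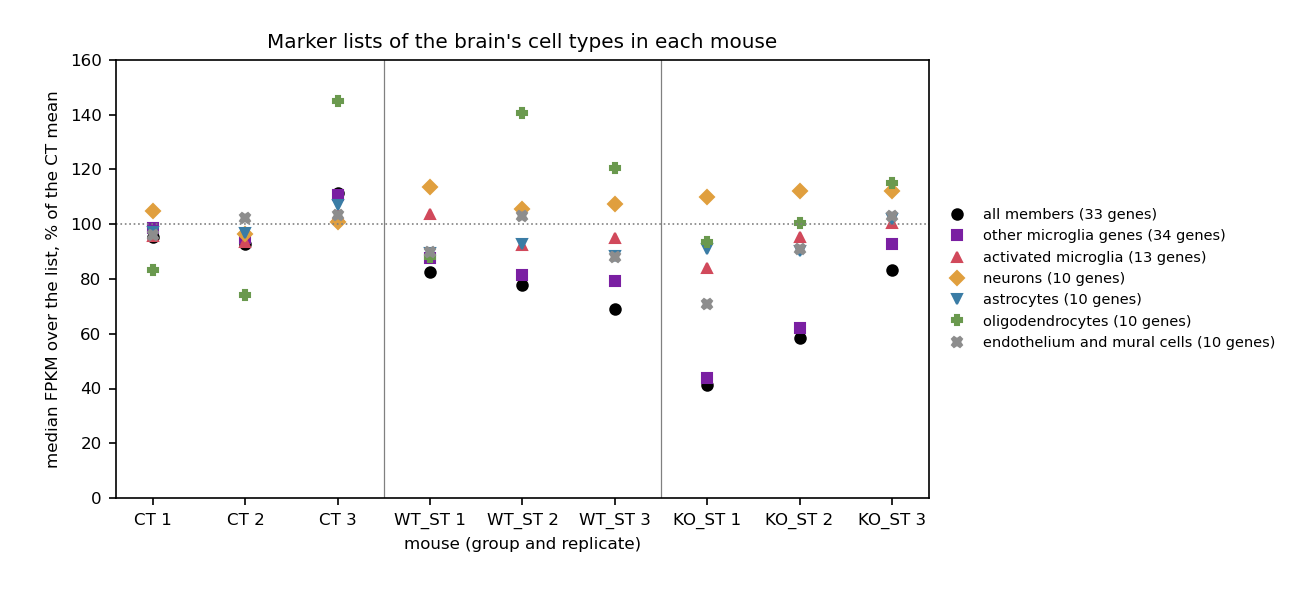
The median FPKM over each list of marker genes, as a percentage of the CT mean, is drawn for the 9 mice. The 33 microglial genes (41.5% to 83.1% in KO_ST) and the 34 further microglia genes (43.9% to 92.8% in KO_ST) lie below the neuronal markers (109.8% to 112% in KO_ST).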

How the data were processed

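For each mouse the authors deposited read counts without normalization and FPKM values per gene. By the submitters' processing notes and the study's methods, reads of 101 bases from stranded mRNA libraries were aligned to mm10 (GRCm38) with HISAT2 2.1.0 and Bowtie2 2.3.4.1 and quantified with StringTie 1.3.4d. Whether counting used strand is not given in the sources used here. Depth was 43778471 to 61150128 reads on genes. The mice were separate animals, each with 1 library.

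From these files, log2(FPKM+1) was quantile normalized over the 9 mice and compared with limma 3.58.1 (trend, R 4.3.3) in the 6 mice of each comparison, over the 14370 genes with a mean of at least 30 reads. Calls needed an unadjusted p under 0.05 and a fold above 1.2, and Benjamini-Hochberg adjusted values are given beside them. Alternatives were a pseudocount of 0.1, no quantile normalization, no filter, a mean FPKM of at least 1, 1 fit over all mice, edgeR 4.0.16 and DESeq2 1.42.0 on the counts, a replicate block and leaving out each mouse. The limma and edgeR fits were tested on simulated data. DESeq2 made more false calls than they did there.

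The members and lists were chosen with earlier results of these data known. The text names all 33 members, the 7 ligand genes, Fkbp5 and, from other lists, called genes only, at most 4 per list and comparison by size, except 1 gene that is not reported here. The untested genes of activated microglia and the genes overlapping members on the other strand are named in addition, chosen after their values were seen. Per-mouse values are given for members called in any comparison, and beyond that rule for the rest. Replicate numbers were not used to pair mice, since deviations from the group means correlated between -0.26 and 0.23 in mice with the same number. Gene positions and promoter windows are from RefSeq on GRCm38.p6. Plots were made in Python 3.11.15 with matplotlib 3.10.9.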

Additional observations from a re-analysis of the deposited data

How the results depend on the processing

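Of 701 values of 89 gene differences recomputed under other settings of the processing, 642 kept their direction and side of the call and 59 lost the call. Of 534 values of these differences with 1 mouse left out, 401 kept both, 122 lost the call, 1 gained it and 10 changed direction. In WT_ST against CT, the count of 14 called members was 5 in 1 fit over all mice, and the median log2 difference of -0.26 was -0.38 with edgeR and with DESeq2, which use no pseudocount of 1. In KO_ST against WT_ST, the 3 called members became 0 with no filter on low counts, 5 in 1 fit over all mice, 0 with edgeR and 6 with DESeq2. In KO_ST against CT, the 27 called members became 18 with no filter on low counts, and without single mice their number ranged from 11 to 31. In KO_ST against WT_ST it ranged from 0 to 22 without single mice. A filter at a mean FPKM of 1 leaves out 3 members. The cause of these changes was not tested.

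With the replicate block, 15, 30 and 1 members were called in WT_ST against CT, KO_ST against CT and KO_ST against WT_ST, although replicate numbers did not pair the mice: deviations correlated at -0.01 on average for the same number.

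Without single mice, the log2 difference of Aif1 ranged from -0.31 to 0.26 in WT_ST against CT, from -0.16 to 0.41 in KO_ST against CT and from -0.093 to 0.41 in KO_ST against WT_ST. That of Mertk ranged from -0.16 to 0.028 in WT_ST against CT and from -0.013 to 0.18 in KO_ST against CT. The precision is limited by 3 mice a group and, for low genes, by depth, with as few as 28 reads on P2ry6 in 1 mouse.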
